A study of Mus musculus with 4 samples.

Results

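Transcripts of 8 genes that carry ribosomal RNA (rRNA) or are grouped with it were examined in mouse embryonic stem cells. They are 8 of 20792 gene names in the deposited tables. They were taken by symbol: Rn18s-rs5, Gm42418, AY036118, Gm15564, Mir6240, mt-Rnr1 and mt-Rnr2 from a noncoding table of 4973 symbols, and Lars2 from an mRNA table of 16469 symbols. The symbols were chosen by their deposited values in these same 4 libraries, so their abundance and their ratios between libraries are given as a description and not as a test. The study asked which RNAs a mutant form of Dis3l2 binds. Dis3l2 is an exoribonuclease that degrades RNA from the 3′ end and favours RNA tailed with uridine. All libraries came from C57BL/6 mouse embryonic stem cells at passages 25 to 30, kept on gelatin without feeder cells in medium with LIF and serum.

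The 4 groups, each of 1 library, were the mutant IP, the mock IP, the mutant input and the mock input. Cells of the mutant groups had received mutant Dis3l2 with a FLAG tag by transfection, and those of the mock groups had been mock transfected. Nothing in the labels states separate cultures or repeats, and in bulk RNA fewer cells of a type and less RNA per cell cannot be told apart. IP denotes RNA recovered on anti-FLAG M2 beads. Input RNA had gone through RiboMinus selection, which depletes rRNA with capture probes, while the labels give no such step for the IP RNA. The labels name neither the mutation nor the promoter of the construct.

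Cytosolic ribosomes hold 18S rRNA in the small subunit and 28S, 5.8S and 5S rRNA in the large one. RNA polymerase I makes 18S, 5.8S and 28S rRNA as parts of a single long precursor from tandem gene arrays, whereas 5S rRNA is made by RNA polymerase III. Mitochondria have ribosomes of their own, with a 12S and a 16S rRNA transcribed from the mitochondrial genome. Because rRNA is by far the most abundant RNA of a cell, reads from it can also be assigned to any annotated gene that contains similar sequence.

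Rn18s-rs5 is an 18S rRNA-related sequence that RefSeq classes as a pseudogene on mouse chromosome 17. RefSeq lists Gm42418 as a synonym of Rn18s-rs5 and places AY036118, a long noncoding RNA, so that it overlaps Rn18s-rs5. The deposited table counts these names on separate Ensembl transcripts. The labels do not say whether the counting used strand or how it treated a read with several alignments, so the reads of these 3 names cannot be told apart with certainty. Gm15564 is a long noncoding RNA gene on chromosome 16 that overlaps Parp9 and Kpna1 in RefSeq. Mir6240 is a microRNA gene on chromosome 5. The genes mt-Rnr1 and mt-Rnr2 encode the 12S and 16S rRNA. Lars2, on chromosome 9, encodes mitochondrial leucyl-tRNA synthetase, which charges tRNA with leucine. Of the 8 symbols, 7 were found as such in RefSeq's gene table of GRCm38.p6.

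The sequence of Mir6240 is shown because this member had among the largest IP to input ratios of its table. In RefSeq the hairpin lies at chr5:114851948-114852064 on the plus strand of GRCm38.p6 and has 117 bases. The capitals mark the annotated mature miR-6240 in the hairpin and the seed, bases 2 to 8, in the mature form. The seed is shared with 1 other entry, mmu-miR-330-3p, so that 2 of 1738 mature entries of RefSeq's mouse table carry it.
Mir6240 hairpin: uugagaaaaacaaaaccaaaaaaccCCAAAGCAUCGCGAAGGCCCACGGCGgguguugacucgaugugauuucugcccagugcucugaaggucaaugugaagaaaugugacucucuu
mmu-miR-6240: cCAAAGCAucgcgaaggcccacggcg
The deposited counts are per transcript and do not tell whether a read covered the mature part or a longer RNA.

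The libraries held 3183346, 2157604, 2746737 and 2738512 reads in the noncoding table for the mutant IP, mock IP, mutant input and mock input, and 2275647, 1860030, 307324 and 291175 in the mRNA table. Dis3l2, the check of the labels, had 127 reads from the mutant IP and 21 from the mock IP. The mutant IP was thus 5.60 times the mock IP (95% interval 3.51 to 9.36). Dis3l2 reads numbered 7 for mutant input and 3 for mock input, a ratio of 3.24 (0.740 to 19.4). At this depth Dis3l2 did not tell the mutant input from the mock input. The 12 listed markers of embryonic stem cells summed to 4136, 2799, 149 and 177 reads in the same order of libraries. Dppa3 was at 0 in 3 of the libraries, all but the mock IP. Markers of fibroblasts summed to 159, 66, 16 and 13 reads over the 5 of 8 listed genes in the table, those of primitive endoderm to 32, 26, 6 and 0 over 5 of 7, those of mesoderm to 30, 20, 20 and 36 over 5, and those of neural ectoderm to 116, 103, 19 and 18 over 5. With 1 library per group there was no test. Intervals are exact 95% intervals from whole reads, which cover counting error only, and they compare libraries, not conditions.

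The 8 genes took most of the reads of both IPs. Together they held 60.1% of all reads of both tables from the mutant IP and 67.5% from the mock IP, against 20.6% in the mutant input and 24.7% in the mock input. The 7 noncoding members held 66.0% of the noncoding table for mutant IP (exact Clopper-Pearson interval 65.9 to 66.0) and 75.2% for mock IP (75.2 to 75.3), against 19.2% in the mutant input (19.2 to 19.3) and 23.6% in the mock input (23.5 to 23.6). The mutant library had the smaller share in each pair. Nearly all of this was Rn18s-rs5, Gm42418 and AY036118, which summed to 64.7%, 73.7%, 19.2% and 23.5% in the 4 libraries. These sums and their intervals take each read as counted once. The labels do not say how a read with several alignments was counted, so the same read may stand under several names and in the totals.

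These shares depend on what else is in the table. Of the other noncoding transcripts, 24 held over 2% of at least 1 library, among them the U1 snRNA genes Rnu1a1, Rnu1b1, Rnu1b2 and Rnu1b6, and together they took 17.4% of reads for mutant IP and 13.9% for mock IP, against 61.5% of the mutant input and 59.9% of the mock input. With these 24 left out of the totals, the 7 members held 79.9% and 87.4% of the mutant and mock IPs and 49.9% and 58.8% of the mutant and mock inputs.

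**Figure D1:**
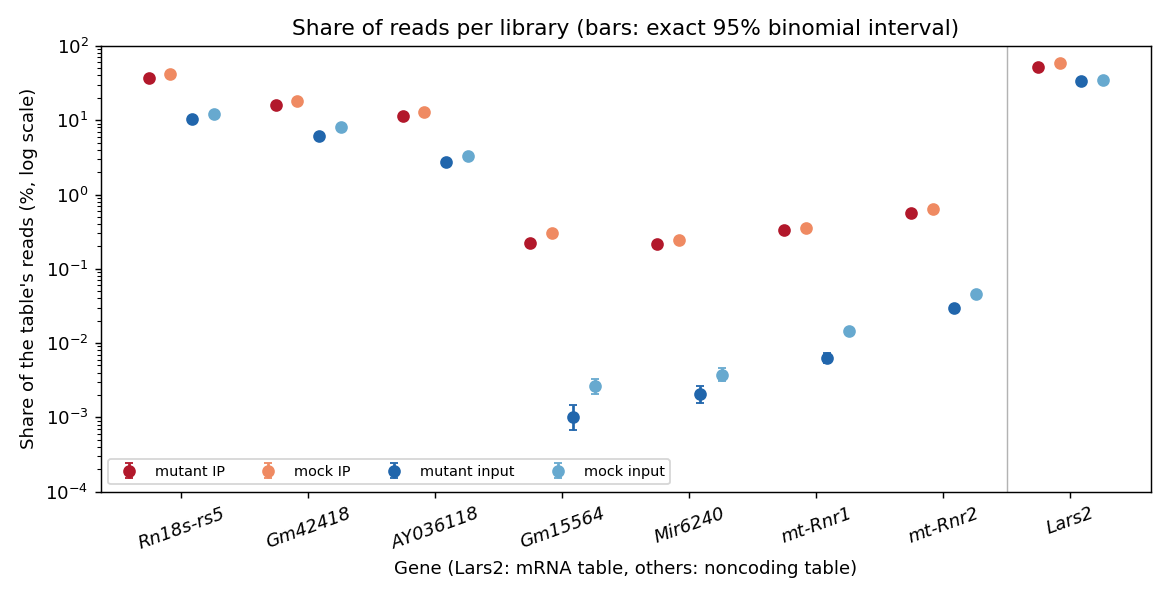
Share of reads of each gene in its own deposited table, in percent on a log axis, with 1 point per library and exact 95% binomial bars. Rn18s-rs5, Gm42418 and AY036118 lie between 2.75% and 42.4%, Gm15564, Mir6240, mt-Rnr1 and mt-Rnr2 lie under 1% in every library and drop furthest in the inputs, and Lars2 lies between 33.3% and 58.6% of the mRNA table.

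Among the rRNA-related names of chromosome 17, Rn18s-rs5 had 1179711 reads from the mutant IP and 915200 from the mock IP, with 284824 in the mutant input and 331483 in the mock input. It had rank 1 among noncoding features in every library. Gm42418 had 515792, 397551, 166199 and 221265 reads in the same order and had rank 2 throughout. AY036118 had 362754, 277209, 75549 and 90962 reads and had rank 3 in both IPs, rank 5 in the mutant input and rank 4 in the mock input. For all of them both IPs lay above both inputs.

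As shares of the noncoding table, Rn18s-rs5 held 37.1% for mutant IP and 42.4% for mock IP, with 10.4% of the mutant input and 12.1% of the mock input. Gm42418 held 16.2% and 18.4% of the mutant and mock IPs and 6.05% and 8.08% of the mutant and mock inputs. For AY036118 the shares were 11.4% and 12.8% in the mutant and mock IPs and 2.75% and 3.32% in the inputs. A further Ensembl transcript named Rn18s-rs5 had far fewer reads, 2395, 2693, 1518 and 1763 in the same order, and it is left out of the values above.

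Each IP was set against its own input. Since only the inputs are described as RiboMinus-selected, the ratio for an rRNA holds both the recovery on the beads and the difference in depletion, which cannot be told apart here. On the deposited values, Rn18s-rs5 was 2.76-fold higher in the mutant IP than in its input and likewise 2.76-fold higher in the mock IP. AY036118 was 3.20-fold higher in the mutant (3.18 to 3.23) and 3.05-fold higher in the mock (3.02 to 3.07). Gm42418 was 2.07-fold higher in the mutant (2.06 to 2.08) and 1.797-fold higher in the mock (1.787 to 1.806). None of the 3 reached 4-fold in either condition. The median noncoding feature was 1.87-fold higher in the mutant and 1.73-fold higher in the mock. These names thus lay 0.15 to 0.78 above the median on the log2 scale in the mutant and 0.06 to 0.82 above it in the mock. Among features with at least 100 reads in either library, the median log2 ratio was instead -0.50 in the mutant and -0.64 in the mock. There Rn18s-rs5, Gm42418 and AY036118 ranked 169, 204 and 153 of 844 in the mutant. In the mock they ranked 81, 113 and 73 of 731. The other Rn18s-rs5 transcript differed from the main one, with an IP to input fold of 1.05 in the mutant (0.986 to 1.12) and 1.53 in the mock (1.44 to 1.62).

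Gm15564, Mir6240 and the mitochondrial rRNAs were scarce in the inputs and behaved differently from the chromosome 17 names. Gm15564 had 7112 reads from the mutant IP and 6488 from the mock IP, against 28 in the mutant input and 72 in the mock input. Mir6240 had 6817 and 5262 reads in the mutant and mock IPs, against 56 and 103 in the mutant and mock inputs. Neither input came near the IPs for these genes. A pair of further Gm15564 transcripts had 0 reads in both mutant libraries and at most 5 in either mock library.

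The 12S rRNA gene mt-Rnr1 had 10735 reads from the mutant IP and 7546 from the mock IP, against 174 in the mutant input and 394 in the mock input. The 16S rRNA gene mt-Rnr2 had 17891 and 13860 reads in the mutant and mock IPs, against 823 and 1240 in the mutant and mock inputs. Both mitochondrial rRNAs together held 0.899% of the noncoding table from the mutant IP and 0.992% from the mock IP, with 0.0363% of the mutant input (0.0341 to 0.0386) and 0.0597% of the mock input (0.0568 to 0.0626).

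Relative to input, Gm15564 was 169-fold higher in the mutant IP (117 to 255) and 90.1-fold higher in the mock IP (71.5 to 115). Mir6240 was 81.2-fold higher in the mutant (62.4 to 108) and 51.1-fold higher in the mock (42.0 to 62.7). The 12S gene mt-Rnr1 reached 41.1-fold in the mutant (35.4 to 48.1) and 19.2-fold in the mock (17.3 to 21.2). The 16S gene mt-Rnr2 reached 14.5-fold in the mutant (13.5 to 15.6) and 11.2-fold in the mock (10.5 to 11.9). All 4 passed 4-fold in both conditions, and in each the fold was larger in the mutant.

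An IP value at least 4-fold above input was found for 25.7% of 3406 measured noncoding features in the mutant and for 23.5% of 3138 in the mock, where measured means a value of at least 1 in a library of the ratio. Among features with at least 100 reads in either library the same call took 15.5% (mutant) and 7.39% (mock). In that deeper set Gm15564, Mir6240, mt-Rnr1 and mt-Rnr2 ranked 1, 2, 8 and 48 of 844 in the mutant and 2, 3, 10 and 21 of 731 in the mock. These genes were chosen with such ratios known, and nothing further is read from the ranks. Scaling to equal table totals gave log2 ratios of 4.23 to 7.66 in the mutant and 3.82 to 6.79 in the mock for these genes.

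**Figure D2:**
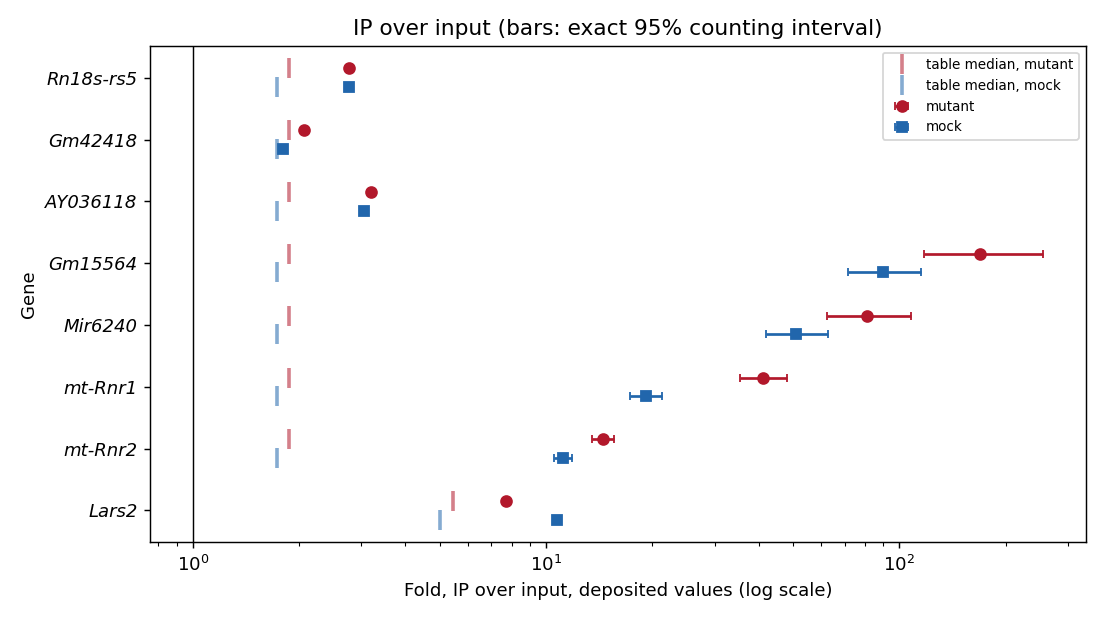
Fold of IP over input on the deposited values (log axis) for each gene, with mutant circles above mock squares, exact 95% counting intervals, and vertical ticks at the median feature of the gene's table. Rn18s-rs5, Gm42418 and AY036118 lie near the ticks of the noncoding table, while Gm15564, Mir6240, mt-Rnr1 and mt-Rnr2 lie between 11.2-fold and 169-fold. The ticks are medians over all measured features, including those with few reads.

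Reads of the members were also set against those of Rn18s-rs5 in the same library, which removes any scaling between libraries but not the difference in rRNA depletion between input and IP. Per 1000 Rn18s-rs5 reads, Gm42418 had 437 from the mutant IP and 434 from the mock IP, against 584 in the mutant input and 668 in the mock input. AY036118 had 307 and 303 in the mutant and mock IPs, against 265 and 274 in the mutant and mock inputs. Relative to Rn18s-rs5, Gm42418 was thus lower in the IPs than in the inputs and AY036118 higher. Gm42418 was also lower in the mutant input than in the mock input, beyond counting error (580 to 587 against 664 to 671).

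On the same scale mt-Rnr2 had 15.2 from the mutant IP and 15.1 from the mock IP, with overlapping intervals, against 2.89 in the mutant input and 3.74 in the mock input. The 12S gene mt-Rnr1 had 9.10 and 8.25 in the mutant and mock IPs and 0.611 and 1.19 in the mutant and mock inputs. Mir6240 had 5.78 and 5.75 in the mutant and mock IPs and 0.197 and 0.311 in the inputs. Gm15564 had 6.03 from the mutant IP and 7.09 from the mock IP, with 0.0983 in the mutant input and 0.217 in the mock input. Between the IPs the reads per 1000 Rn18s-rs5 reads were thus close for Gm42418, AY036118, Mir6240 and mt-Rnr2, and further apart for Gm15564, mt-Rnr1 and Lars2.

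**Figure D3:**
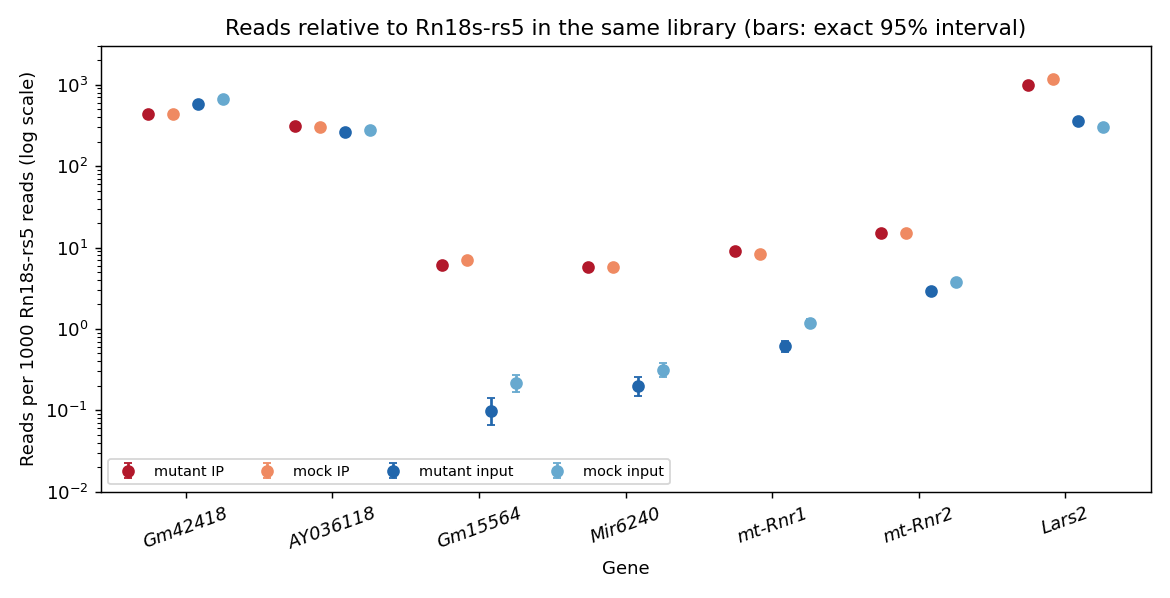
Reads of each gene per 1000 reads of Rn18s-rs5 in the same library (log axis), with exact 95% intervals. For Gm42418, AY036118, Mir6240 and mt-Rnr2 the mutant and mock IPs are nearly level, and Gm15564, Mir6240, mt-Rnr1 and mt-Rnr2 are far lower in both inputs.

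The balance of the mitochondrial rRNAs differed between IP and input. There were 1.67 mt-Rnr2 reads per mt-Rnr1 read of the mutant IP (1.63 to 1.71) and 1.84 of the mock IP (1.79 to 1.89), against 4.73 in the mutant input (4.01 to 5.60) and 3.15 in the mock input (2.81 to 3.53). The intervals of the IPs and inputs did not overlap, and neither did those of the mutant and mock inputs. The genes are neighbours on the mitochondrial genome, with a tRNA gene between them. Reads were not divided by transcript length, so the size of this ratio is not a ratio of molecules.

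Lars2 dominated the mRNA table. It had 1182576 reads from the mutant IP and 1089665 from the mock IP, against 102380 in the mutant input and 101393 in the mock input. It held 52.0% of the mRNA table from the mutant IP and 58.6% from the mock IP, and 33.3% in the mutant input and 34.8% in the mock input. Of the reads in both tables, Lars2 held 21.7% and 27.1% in the mutant and mock IPs and 3.35% in each input. Per 1000 Rn18s-rs5 reads it had 1002 from the mutant IP and 1191 from the mock IP, against 359 in the mutant input and 306 in the mock input. The mutant library was thus lower between the IPs and higher between the inputs on that scale.

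Lars2 was 7.70-fold higher in the mutant IP than in its input (7.65 to 7.75) and 10.7-fold higher in the mock IP (10.7 to 10.8). Of the whole mRNA table, 61.1% of 13637 features passed 4-fold over input in the mutant and 60.6% of 13111 in the mock, with a median feature 5.44-fold higher in the mutant and 5-fold higher in the mock. Among features with at least 100 reads in either library the same call took 83.3% in the mutant and 84% in the mock. Lars2 lay 0.50 above the median of all measured features on the log2 scale in the mutant and 1.10 above it in the mock. Among those with at least 100 reads the median was higher. There Lars2, at 2.94, lay below the median of 3.26 in the mutant, with rank 1658 of 2768. In the mock it lay at 3.43, slightly above the median of 3.34, with rank 885 of 1866. With equal table totals it gave log2 ratios of 0.64 (mutant) and 0.75 (mock), so that the 4-fold call ended in both. Centring on the median turned the mRNA counts past 4-fold from 8330 up and 316 down into 1108 and 1883 in the mutant, and from 7940 and 252 into 996 and 1563 in the mock.

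The other aminoacyl-tRNA synthetase genes of mitochondria, with Lars, the cytosolic leucyl-tRNA synthetase, had few reads. Of 17 listed genes 16 were in the mRNA table, and none exceeded 196 reads in any library. Lars had 145 reads from the mutant IP and 171 from the mock IP, against 10 in the mutant input and 0 in the mock input. Iars2, which charges isoleucine, had 196 and 117 reads in the mutant and mock IPs and 1 and 4 in the mutant and mock inputs. At least 4-fold higher in IP than in input were 9 of 15 measured genes in the mutant and 12 of 15 in the mock, beside 61.1% and 60.6% of the whole mRNA table in the mutant and mock. Whether reads counted on Lars2, Gm15564 or Mir6240 came from these genes or from rRNA was not tested.

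The mutant IP was compared with the mock IP to find RNA recovered because of the tagged protein. None of the 8 genes was 4-fold apart between the IPs in either direction, in a noncoding table where 13.5% of 3506 features were higher and 5.99% lower and an mRNA table where 10.1% of 14273 were higher and 5.74% lower. Rn18s-rs5 was 1.19-fold higher in the mutant IP, Gm42418 1.20-fold and AY036118 1.21-fold. Mir6240 was 1.20-fold higher (1.16 to 1.24), mt-Rnr2 1.20-fold (1.17 to 1.22) and mt-Rnr1 1.32-fold (1.28 to 1.36). Gm15564, at 1.01 (0.981 to 1.05), did not differ beyond counting error, and Lars2 was at 1.005 (1.002 to 1.008).

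The median feature was 1.38-fold higher in the mutant IP in the noncoding table and 1.30-fold higher in the mRNA table, a log2 shift of 0.47 and 0.38. All 8 members lay below their table's median, mt-Rnr1 by 0.07, the other noncoding members by 0.19 to 0.45 and Lars2 by 0.38. With equal table totals the sign turned for every member, to log2 ratios between -0.43 for Gm15564 and -0.05 for mt-Rnr1. A direction between the IPs is therefore not given for these genes. On the deposited values 475 noncoding features were past 4-fold upward and 210 downward in the mutant IP, while with equal table totals it was 395 and 329 and with centring on the median 246 and 398. For the mRNA table the counts were 1436 and 819 as deposited and 839 and 1205 with centring.

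**Figure D4:**
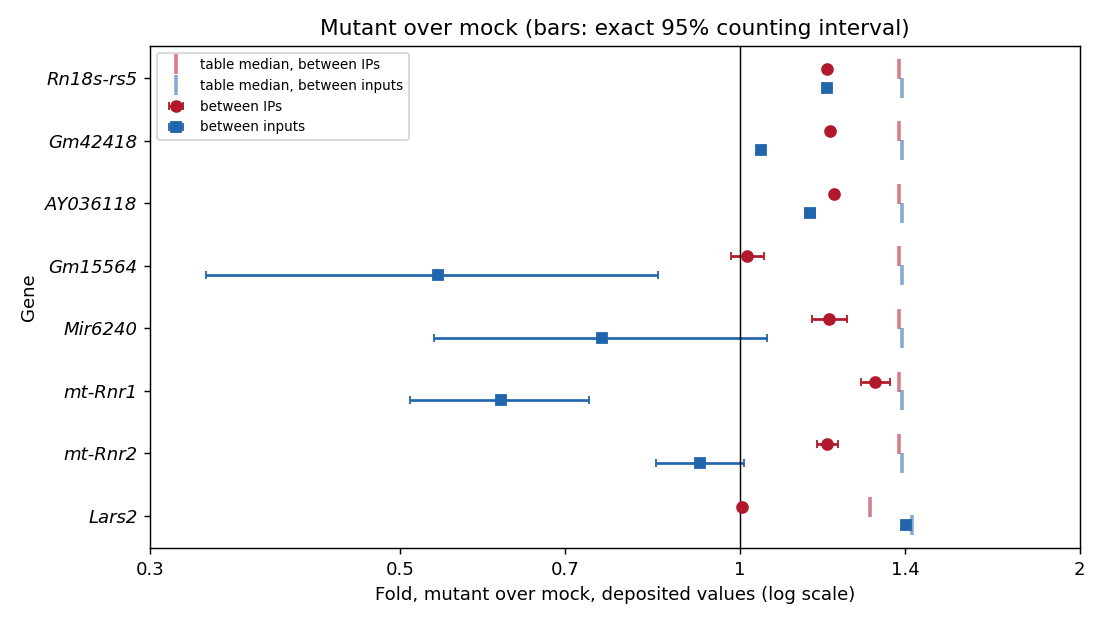
Fold of mutant over mock on the deposited values (log axis), between the IPs as circles above the same ratio between the inputs as squares, with exact 95% counting intervals and ticks at the median feature of the gene's table. Every IP circle lies between 1.005 and 1.32 and left of its tick, and between the inputs mt-Rnr1 and Gm15564 lie below 1 with intervals that do not reach it.

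The 5S rRNA copies, transcribed apart from the other rRNAs, gave other values in the same libraries. Of 68 annotated copies, 58 were measured between the IPs. As deposited, 42 of them were at least 4-fold higher in the mutant IP and 0 were lower. Among all 3506 measured noncoding features, 13.5% were higher and 5.99% lower. The 58 copies had a median log2 ratio of 2.18 against 0.47 for all features. This median lies close to the 4-fold threshold, and the count under other scalings between the libraries is not given here. The most abundant copies by mean, n-R5s103 and n-R5s146, had 955 and 887 reads in the mutant IP, against 177 and 163 in the mock IP. Over the 41 copies past 4-fold with at least 20 reads in an IP, the median was 772 reads from the mutant IP and 149 from the mock IP. These copies were selected by that ratio, so a gap between the medians follows from the selection. The copies are near-identical and are not independent observations. A search for other rRNA symbols by name found Rn5s, with 837 reads from the mutant IP and 159 from the mock IP (fold 4.87, 4.11 to 5.81). It also matched Rn4.5s, a small rodent RNA taken by its name alone and not shown to be rRNA. Rn4.5s had 5540 and 2016 reads, a ratio of 2.54 (2.42 to 2.68).

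Between the inputs, no member was 2-fold apart on the deposited values, in a noncoding table where 29% of 2533 features passed 2-fold upward in the mutant input and 13.6% downward, and an mRNA table where 37% of 9367 were higher and 21.8% lower. Rn18s-rs5 was 1.19-fold higher in the mutant input (1.19 to 1.20), AY036118 1.15-fold (1.14 to 1.16) and Gm42418 1.04-fold (1.04 to 1.05). Lars2 was 1.402-fold higher (1.39 to 1.41), close to the median of its table at 1.42. The scarce members were lower in the mutant input: mt-Rnr1 stood at 0.613 times the mock input (0.510 to 0.735) and Gm15564 at 0.540 times (0.336 to 0.846). For Mir6240 at 0.755 times (0.535 to 1.06) and mt-Rnr2 at 0.922 times (0.843 to 1.01) a difference was not detectable at this depth. Both inputs had gone through RiboMinus selection. For an rRNA, uneven depletion between these libraries cannot be told apart from a difference in cellular RNA.

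The median feature between the inputs was 1.39-fold higher in the mutant in the noncoding table. With equal table totals every member had a log2 ratio below 0, from -0.06 for Lars2 to -1.30 for Gm15564, and Gm15564 and mt-Rnr1, at -1.17, passed 2-fold. Under that scaling 422 noncoding features passed 2-fold upward and 415 downward, compared with 735 and 344 on the deposited values and 306 and 447 with centring. On the deposited values 47 of 49 measured 5S copies were at least 2-fold lower in the mutant input.

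The specific IP enrichment sets IP over input in the mutant against the same ratio in the mock. No member passed 4-fold, in a noncoding table where 13.3% of 3968 features were higher and 8.69% lower and an mRNA table where 13.8% of 15060 were higher and 10.6% lower. On the log2 scale Rn18s-rs5 was at 0.00, AY036118 at 0.07 and Gm42418 at 0.20. The scarce members lay at 0.37 for mt-Rnr2, 0.66 for Mir6240, 0.87 for Gm15564 and 1.10 for mt-Rnr1, and Lars2 lay at -0.48. As a fold with a Wald interval for counting error, mt-Rnr1 was at 2.15 (1.79 to 2.57), Gm15564 at 1.88 (1.21 to 2.91), Mir6240 at 1.59 (1.15 to 2.20) and Lars2 at 0.717 (0.710 to 0.723). For mt-Rnr1, Gm15564 and Mir6240 most of this value came from the inputs, where they had 28 to 394 reads. A difference in rRNA depletion between the inputs would enter these values too. With equal table totals Lars2 moved to -0.11 on the log2 scale, while mt-Rnr1, Gm15564 and Mir6240 lay at 1.12, 0.87 and 0.67. Over the alternatives mt-Rnr2 ran from 0.02 to 0.53. The 5S copies had a median of 3.82 on the log2 scale, against 0.03 for all noncoding features. Their medians were 2.18 between the IPs and -1.79 between the inputs, so the inputs also entered this value. The 41 copies past 4-fold between the IPs had a median of 30 reads in the mutant input and 160 in the mock input.

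Proteins that make and process rRNA were looked at through their mRNAs. Of 20 listed RNA polymerase I subunits and factors 19 were measured between the IPs. Past 4-fold were 2 upward and 1 downward, and the median log2 ratio was 0.25 against 0.38 for all features of the table. Ubtf, the factor that keeps rRNA genes open, had 245 reads from the mutant IP and 251 from the mock IP, and Polr1b, the second largest subunit of the polymerase, 203 and 86, a ratio of 2.19 (1.69 to 2.85). Polr1d, a subunit, had 48 reads from the mutant IP and 4 from the mock IP, a ratio of 11.1 (4.07 to 42.4). Polr1e, another subunit, had 25 reads against 0. Its exact interval began at 5.82-fold, and a floor of 3 reads in place of the 0 gave 7.72-fold. Polr2h, a subunit shared by the nuclear polymerases, had 1 read against 34, a ratio of 0.0272 (6.70e-04 to 0.162).

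All 32 listed rRNA processing and nucleolar genes were measured between the IPs. Past 4-fold were 0 upward and 2 downward, and the median was 0.29. Ncl, which encodes nucleolin, had 1612 reads from the mutant IP and 1272 from the mock IP (fold 1.17, 1.09 to 1.26), and Npm1, which encodes nucleophosmin, 591 and 687, a ratio of 0.797 (0.712 to 0.890). Imp4, part of the complex that processes the 18S precursor, had 6 reads against 30, a ratio of 0.185 (0.0630 to 0.452).

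Of 14 listed factors for mitochondrial transcription and rRNA 13 were measured, 1 higher and 1 lower, with a median of 0.11. Lrpprc, an RNA-binding protein of mitochondria, had 98 reads from the mutant IP and 83 from the mock IP, and Tfam, the main transcription factor of the mitochondrial genome, 68 and 58. Of the 16 measured synthetase genes 1 was higher and 0 lower, with a median of 0.06. That gene was Hars2, which charges histidine, with 27 reads against 1, a ratio of 25.0 (4.12 to 1024). Of 6 mitochondrial tRNA genes 2 were measured between the IPs and neither passed 4-fold, mt-Ts1 with 45 reads from the mutant IP and 14 from the mock IP and mt-Tl1 with 6 and 0. The counts of these lists beside 10.1% higher and 5.74% lower in the whole mRNA table rest on few reads per gene.

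For each member, the features with the most similar pattern over the 4 libraries were sought in both tables among those with a mean of at least 100 reads, by the distance between log2 profiles centred on their own mean. With 4 libraries such likeness is coarse. The nearest to Rn18s-rs5 were Myh9, 2500002B13Rik and Gm2822 at distances of 0.12 to 0.17, to Gm42418 Ankrd11, Snrnp70 and Myh10 at 0.11 to 0.25, and to AY036118 Cgn, Golgb1 and Rn18s-rs5 at 0.10 to 0.18. The nearest to Gm15564 were Zfp57, Triml1 and Zfp280b at 0.52 to 0.78, and to Mir6240 Tsc1, Zfml and Tdgf1 at 0.33 to 0.39. For mt-Rnr1 they were Ganab, Zfp217 and Cd81 at 0.14 to 0.29, for mt-Rnr2 Canx, Gm5643 and Pml at 0.10 to 0.14, and for Lars2 Khsrp, Rnf10 and Cbfa2t2 at 0.12 to 0.19. The only member among another member's nearest features was Rn18s-rs5 for AY036118. The distance between Rn18s-rs5 and Gm42418 was 0.54, that between Gm15564 and Mir6240 0.98, that between mt-Rnr1 and mt-Rnr2 1.21, and that between Lars2 and Rn18s-rs5 1.74.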

How the data were processed

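The series holds 4 libraries, 1 per group, in 2 tables. Reads were aligned with Bowtie to mm9, per the submitters' processing notes; the version, the counter and the treatment of strand and multiple alignments were not stated there. The deposited values are a signal, not divided by length: 100% were whole reads (within 0.02) divided by 2.7, 2.5, 1.8 and 2.5 in the mutant IP, mock IP, mutant input and mock input. What these factors stand for is unknown. Log2 ratios used the values as deposited with a pseudocount of 1, among features of at least 1 in any library of the ratio, the transcript with the highest mean standing for a symbol. A length- or depth-normalised unit was not assumed, and with 1 library per group no count test was run. Shares have Clopper-Pearson intervals, ratios conditional binomial intervals. Ratios and intervals were tested on simulated data. Members and lists were chosen with earlier results of these data known. Named were all members, Dis3l2, the 3 nearest features per member and, from each gene list other than the cell type markers, the 2 most abundant genes and those past 4-fold between the IPs with at least 20 reads in either; the 41 5S copies this last part takes are given as a count and median. There were 7 planned and 2 added alternatives (Python 3.11.15, SciPy 1.17.1, pandas 2.3.3).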

Additional observations from a re-analysis of the deposited data

Results flagged for a closer look

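The 12S rRNA gene mt-Rnr1 was 1.32-fold higher in mutant than in mock between the IPs (1.28 to 1.36) and at 0.613 times the mock between the inputs (0.510 to 0.735). The mutant library thus lay above its mock in one kind of RNA and below it in the other, with counting intervals on opposite sides of 1. The difference was not tested, since each value comes from 1 library against 1 library. With equal table totals the ratio between the IPs became -0.05 on the log2 scale and that between the inputs -1.17, so that both lay below 0.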

How the results depend on the processing

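With 1 library per group no difference has a replicate check, and what the deposited factors stand for is unknown, so scaling between libraries is the main limit; depth limits Gm15564, Mir6240 and mt-Rnr1 in the inputs. The counts of members past 4-fold between the IPs and in the specific enrichment stayed at 0 under all 9 alternatives. For IP over input they were 5 in each condition and ran from 4 to 7. The 4 that passed under every alternative with a value were Gm15564, Mir6240, mt-Rnr1 and mt-Rnr2. Lars2 dropped out with equal table totals (log2 ratios of 0.64 for mutant and 0.75 for mock), centred on the table's median (0.50 and 1.10), relative to Rn18s-rs5 (1.48 and 1.96) and with equal totals without the members (1.11 and 1.405). AY036118 passed in the mutant with equal table totals, at 2.05, and all 7 noncoding members passed with equal totals without the members. Between the inputs 0 members were at least 2-fold lower as deposited, 2 with equal table totals, 2 centred, 2 with equal totals without the members, 2 with equal totals over both tables and 1 relative to Rn18s-rs5. That setting and the minimum of 100 reads were chosen after seeing the data. The cause was not tested. Of 359 alternative log2 ratios of members 195 stayed within the counting interval, 164 moved beyond it and 0 changed the sign of a ratio past the threshold. Of both tables together, the 7 noncoding members held 38.5%, 40.4%, 17.3% and 21.3% in the mutant IP, mock IP, mutant input and mock input. For Lars2 these shares were 21.7%, 27.1%, 3.35% and 3.35%. Within the noncoding table alone, without its other features over 2%, the 7 members held 79.9%, 87.4%, 49.9% and 58.8% in that order. Lars2 held 52.2%, 58.8%, 37.6% and 38.3% of the mRNA table on the same terms. No paired analysis was possible because each group holds 1 library and the labels give no replicate numbers.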

Other observations

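A pair of abundant noncoding features outside the 8 genes, chosen after their values were seen, also differed sharply between IP and input. Both are among the features over 2% that were left out of the recalculated totals above. Mir6236, a microRNA gene on chromosome 9, drew 228571 reads from the mutant IP and 241290 from the mock IP, against 3878 in the mutant input and 5131 in the mock input. That is 7.18% and 11.2% of the noncoding table in the mutant and mock IPs and 0.141% and 0.187% in the mutant and mock inputs. It was 39.3-fold higher in IP than in input in the mutant (38.1 to 40.6) and 47.0-fold higher in the mock (45.7 to 48.4).

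Gm26917 went the other way, with 25375 reads from the mutant IP and 23762 from the mock IP, against 130825 in the mutant input and 163866 in the mock input. Its IP to input fold was 0.129 in the mutant (0.128 to 0.131) and 0.145 in the mock (0.143 to 0.147). Its symbol was not found in the RefSeq table used.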
